A study of Mus musculus with 2 samples.

Results

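Aminoacyl-tRNA synthetases are the enzymes that attach each amino acid to its transfer RNA. The genes described here are 35 named synthetases out of the 32285 genes counted in the files. Of these, 34 were found by their symbol, and Mars1 was found by its gene identifier ENSMUSG00000040354, since the files list it under the older symbol Mars. The list holds 20 cytosolic enzymes or subunits and 15 mitochondrial enzymes. The annotation GENCODE M21 lists all 35 as protein coding.

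The cells are haematopoietic stem cells (HSCs) sorted out of bone marrow. The mice were wild type, of strain C57Bl6, with an age of 8 weeks stated in the series title. LSK cells are marrow cells without lineage markers that carry Sca-1 and Kit. The LT-HSC group was gated from LSK cells as CD34-, CD150+, CD48- and Flk2-, and the ST-HSC group as CD34-, CD150+ and CD48+. Each group is 1 droplet library of the 10x Genomics kit that reads the 3' end of RNA and counts molecules by unique molecular identifiers (UMIs), and how many mice were pooled is not given in the sources used here.

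Charged transfer RNA is the substrate of the ribosome, so every cell needs all of these enzymes. In the cytosol, a group of synthetases is held with the scaffold proteins Aimp1, Aimp2 and Eef1e1 in a multi-synthetase complex, and the others act outside it. Mitochondria translate their own few proteins with a separate set of transfer RNAs, which are charged by nuclear-encoded enzymes that mostly carry the suffix 2. Gars and Kars are known to serve both compartments from a single gene. HSCs are known for a low rate of protein synthesis, which is higher in the progenitors they give rise to.

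After removal of barcodes with fewer than 1000 genes or with 10% or more of UMIs from mitochondrially encoded genes, the LT-HSC library held 2722 of 2938 barcodes and 64673871 UMIs. The ST-HSC library held 6648 of 7586 barcodes and 111783180 UMIs. The libraries shared 8 barcode sequences. Cells had a median of 17595 UMIs in the first and 13402 in the second. Slamf1, which encodes CD150, stood at 26.5 counts per 1000000 UMIs (CPM) in the LT-HSC library against 1.26 CPM in the library labelled ST-HSC, and CD150 is positive in both gates. Cd34, which both gates exclude, stood at 29.2 CPM against 242 CPM. Flt3, which encodes Flk2, stood at 5.50 CPM against 291 CPM. Slamf1 and Cd34 RNA in the library labelled ST-HSC therefore went against its label. Cd48, negative in the LT-HSC gate and positive in the ST-HSC gate, went with the labels, at 35.3 CPM against 74.7 CPM. The mismatch of Slamf1 and Cd34 applies to every difference between the libraries given here.

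With 1 library per group no difference has a replicate check, and no p-value was computed. Intervals in parentheses are exact 95% intervals of the UMI counts and cover counting error only. Calls are by size alone: higher for a ratio 25% or more above 1, lower for one 20% or more below 1, among genes whose mean over the compared sums reached 5 CPM. A gene under 5 CPM in 1 of the sums can therefore pass through the other. To look inside the libraries, cells were thinned to 5000 UMIs and grouped by 1 marker each. Hlf-high cells carry a transcription factor gene of HSCs, Car1-high cells a carbonic anhydrase gene of early erythroid cells, Pf4-high cells a megakaryocyte platelet factor gene, and Dntt-positive cells an enzyme gene of lymphoid progenitors. Cells with at least 1% of thinned UMIs from S and G2/M phase genes were called cycling and kept apart. These sets are ranges of a marker and not cell types.

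The LT-HSC library gave 432 Hlf-high, 208 Car1-high, 150 Pf4-high and 779 cycling cells, and the ST-HSC library 1635 Hlf-high, 642 Dntt-positive and 2085 cycling cells. Many cells lay at or next to 2 of these limits. For Hlf, 204 LT-HSC cells had exactly 3 thinned UMIs and 292 had 1 fewer. Dntt-positive needed 1 thinned UMI only, which 1619 of 6367 ST-HSC cells had, and 662 of them had exactly 1. In the LT-HSC library, 2 of 2654 cells had a thinned Dntt UMI. A list of 10 erythroid markers summed to 10046 CPM in Car1-high cells and 1039 CPM in LT-HSC Hlf-high cells. Megakaryocyte markers summed to 6148 CPM in Pf4-high cells and 199 CPM in Hlf-high cells of the same library. Lymphoid progenitor markers summed to 2081 CPM in Dntt-positive cells and 506 CPM in Hlf-high cells of ST-HSC. Each list holds the gene that selected the set, so these sums are not an independent check. In their own sets Car1 alone was at 7651 CPM, Pf4 at 5114 CPM and Dntt at 723 CPM.

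All 35 synthetases were detected in both libraries, over a range of about 4 to about 211 CPM in LT-HSC. The kit reads 3' ends, so these levels do not scale with transcript length, although priming efficiency can still differ between genes. Among the 8 enzymes of the multi-synthetase complex, Eprs was the highest, with 211 CPM (208 to 215) for LT-HSC against 166 CPM (164 to 169) for ST-HSC. In what follows a pair of levels gives LT-HSC first and ST-HSC second. Eprs encodes a fused enzyme that charges both glutamate and proline, and it lies at chr1:185363044-185428360 in build mm10. Dars, the aspartate enzyme, followed at 104 and 91.0 CPM, and Lars, the leucine enzyme, at 87.7 and 85.0 CPM. Rars (arginine) was at 74.3 and 66.2 CPM, Iars (isoleucine) at 47.5 and 48.4 CPM, and Qars (glutamine) at 41.0 and 41.2 CPM. Kars (lysine) was at 39.9 and 51.4 CPM, and Mars1 (methionine) was the lowest of the complex at 26.3 and 25.2 CPM. In LT-HSC the intervals of Qars (39.4 to 42.6) and Kars (38.4 to 41.5) overlapped, so the order of these neighbours is not resolved.

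The 12 cytosolic subunits outside the complex spanned a wider range. Nars, which charges asparagine, was at 113 and 86.8 CPM. The catalytic and the partner subunit of the phenylalanine enzyme were unequal: Farsa was at 94.4 and 80.6 CPM, and Farsb at 56.9 and 56.0 CPM. Sars (serine) was at 80.1 and 64.6 CPM, Vars (valine) at 75.7 and 95.5 CPM, and Gars (glycine) at 71.0 and 62.8 CPM. Hars (histidine), Tars (threonine), Yars (tyrosine) and Wars (tryptophan) lay between 36.9 and 57.3 CPM in the former library and 32.9 and 51.4 CPM in the latter. The lowest were Aars (alanine), at 18.9 and 25.4 CPM, and Cars (cysteine), at 9.32 CPM (8.59 to 10.1) and 17.4 CPM (16.6 to 18.2).

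The mitochondrial enzymes were mostly lower. Fars2, the phenylalanine enzyme of mitochondria, stood above the other 14 at 93.4 CPM (91.1 to 95.8) and 161 CPM (158 to 163). It is a long gene at chr13:36117412-36726280 that overlaps Gm46409 on its own strand and Lyrm4 and Nrn1 on the other, and whether reads in introns were counted is not given in the sources used here. Lars2 followed at 61.0 and 62.0 CPM, Iars2 at 50.2 and 48.1 CPM, Rars2 at 40.6 and 40.7 CPM, and Cars2 at 37.3 and 39.1 CPM. Nars2 was at 34.1 and 42.5 CPM, Yars2 at 33.6 and 18.2 CPM, Tars2 at 22.3 and 28.6 CPM, and Wars2 at 21.5 and 34.3 CPM. Each of these charges mitochondrial transfer RNA with the amino acid in its name. Hars2, Ears2, Sars2, Mars2, Vars2 and Aars2 were the lowest, between 3.96 and 15.2 CPM in the former library and 5.64 and 13.3 CPM in the latter. Besides Fars2, Aars overlaps Exosc6 and Wars2 overlaps Gm43024 and Gm42717 on their own strands. Several members overlap a gene on the opposite strand, among them Mars1 with Ddit3. Whether reads of such neighbours contribute was not tested.

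**Figure D1:**
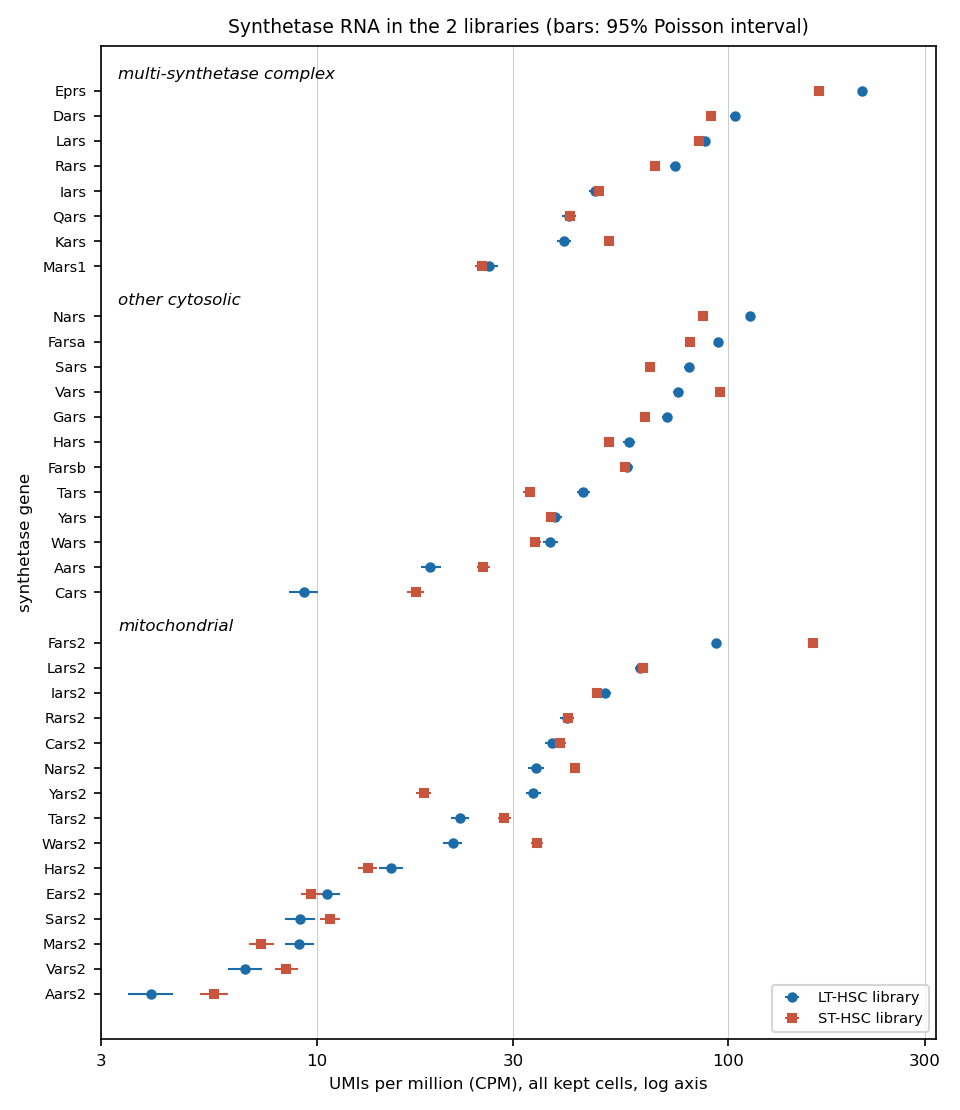
CPM (log axis) of each of the 35 synthetase genes over all kept cells, with LT-HSC as circles and ST-HSC as squares and the 95% Poisson interval as bars, grouped as multi-synthetase complex, other cytosolic and mitochondrial enzymes. Eprs is the highest in both libraries, and Aars2 the lowest, at 3.96 and 5.64 CPM.

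Summed over all kept cells, the 20 cytosolic genes reached 1328 CPM (1319 to 1337) for LT-HSC against 1219 CPM (1212 to 1225) for ST-HSC, a ratio of ST-HSC over LT-HSC of 0.918 (0.910 to 0.926). The 15 mitochondrial genes were at 449 CPM (444 to 454) and 529 CPM (525 to 534), a ratio of 1.18 (1.16 to 1.20). Of the 20 cytosolic genes, 4 were called higher in ST-HSC and 3 lower, where 38.5% of all 10412 genes tested were called higher and 23.0% lower. Cars had the largest ratio, 1.86 (1.70 to 2.04), ahead of Aars at 1.35 (1.26 to 1.44), Kars at 1.29 (1.23 to 1.35) and Vars at 1.26 (1.22 to 1.31). Tars at 0.740 (0.705 to 0.778), Nars at 0.768 (0.745 to 0.792) and Eprs at 0.787 (0.770 to 0.805) were the lower ones. The median log2 ratio was -0.093 over the cytosolic genes and 0.12 over all genes tested. Scaling by edgeR's TMM factors moved the median of all genes to -0.01, the share of all calls that were higher from 62.6% to 49.7%, and the cytosolic calls to 1 higher and 6 lower. With these factors 30.8% of all genes were called higher and 31.1% lower.

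Of 14 mitochondrial genes that passed the level filter, 4 were called higher in ST-HSC and 1 lower. Of all genes tested, 38.5% were called higher and 23.0% lower. Fars2 had a ratio of 1.72 (1.67 to 1.77), Wars2 1.60 (1.5 to 1.70), Tars2 1.28 (1.20 to 1.36) and Vars2 1.26 (1.12 to 1.41). Yars2 went the other way, at 0.541 (0.509 to 0.575), and had the lowest ratio of the 35 genes. Their median log2 ratio was 0.046. With TMM factors 2 were called higher and 3 lower, against 30.8% and 31.1% of all genes. Among cells with 10000 to 20000 UMIs, the ratio of the cytosolic sums was 0.988 (0.971 to 1.01), with 4 of 20 genes higher and 1 lower. That of the mitochondrial sums was 1.22 (1.19 to 1.26), with 5 of 14 higher and 2 lower. At this depth 32.3% of all genes were called higher and 26.4% lower. The 13 protein genes encoded by mitochondrial DNA, whose translation these enzymes serve, summed to 16707 CPM and 34950.4 CPM, while 78 mitochondrial ribosomal protein genes summed to 8118 and 5629 CPM.

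The libraries differ in their cells, so the ratio was also read within Hlf-high cells, with medians of 11570.5 and 9857 UMIs. These Hlf-high cells were not alike in the libraries either. Flt3 was at 17.1 and 304 CPM in them, and Cd34 at 66.8 and 269 CPM. Slamf1 was at 37.7 and 1.66 CPM, and Hlf itself at 669.6 and 1042 CPM. There the summed cytosolic level was 1009 CPM (984 to 1035) against 1038 CPM (1024 to 1052), a ratio of 1.03 (1.0 to 1.06). Of 20 cytosolic genes, 5 were called higher and 0 lower, where 27.7% of 10698 genes tested were called higher and 25.5% lower. These were Cars at 2.60 (1.79 to 3.90), Kars at 1.75 (1.46 to 2.12), Aars at 1.72 (1.31 to 2.28), Mars1 at 1.41 (1.10 to 1.83) and Vars at 1.3 (1.16 to 1.45). In CPM, Cars went from 5.06 to 13.1, Kars from 22.0 to 38.6 and Aars from 10.3 to 17.7. Eprs, at 180.1 and 147 CPM, had the lowest cytosolic ratio, 0.817 (0.762 to 0.876), just short of a call.

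The summed mitochondrial level in Hlf-high cells was 435 CPM (419 to 452) against 548 CPM (538 to 558), a ratio of 1.26 (1.21 to 1.31). Sars2 had the largest ratio at 2.44 (1.49 to 4.24), from 2.94 to 7.19 CPM, so it rests on few molecules. It had 18 UMIs in LT-HSC Hlf-high cells. In each comparison over those cells it passed the level filter only through the other set. Wars2 followed at 1.85 (1.55 to 2.22), Fars2 at 1.74 (1.59 to 1.90) and Tars2 at 1.34 (1.10 to 1.66), and Yars2 was again lower at 0.660 (0.535 to 0.817). These 4 higher and 1 lower calls were out of 14 genes tested, where 27.7% of all genes tested were called higher and 25.5% lower. The share called higher was thus near that of all genes. Among cells with 10000 to 20000 UMIs, the Hlf-high sets gave 6 of 20 cytosolic genes higher and 1 lower, and 4 of 13 mitochondrial genes higher and 2 lower, where 28.9% of all genes were called higher and 26.7% lower. There Cars was at 2.63 (1.49 to 4.98), Fars2 at 1.63 (1.44 to 1.86) and Yars2 at 0.665 (0.483 to 0.922).

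**Figure D2:**
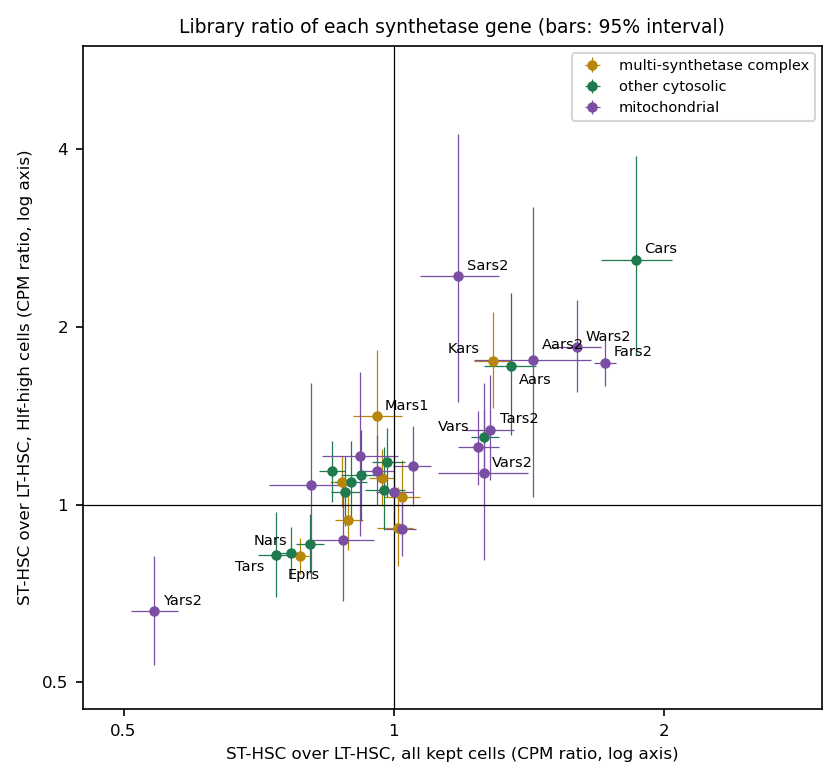
Ratio of ST-HSC over LT-HSC for each synthetase gene in all kept cells (x axis) and in Hlf-high cells (y axis), both on log axes, with 95% intervals as bars and 1 colour per group of enzymes. Cars, Wars2 and Fars2 lie above 1 on both axes, and Yars2 lies below 1 on both, at 0.541 and 0.660.

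Within the LT-HSC library, most cytosolic synthetases made up a larger share of the RNA in Car1-high cells than in Hlf-high cells. The summed cytosolic level was 1518 CPM (1487 to 1549) in Car1-high and 1009 CPM in Hlf-high cells, a ratio of 1.5 (1.46 to 1.55). Of 20 genes 17 were called higher, all but Iars, Qars and Vars, and 0 lower, where 23.5% of 10282 genes tested were called higher and 53.0% lower. Mars1 had the largest ratio at 2.48 (1.90 to 3.27), from 12.7 to 31.6 CPM, followed by Kars at 2.27 (1.85 to 2.79), from 22.0 to 49.9 CPM. Cars was at 2.14 (1.38 to 3.39), Hars at 2.08 (1.75 to 2.47) and Farsa at 2.06 (1.82 to 2.34). The 3 not called were still above 1, with Vars at 1.24 (1.08 to 1.42), Qars at 1.18 (0.989 to 1.42) and Iars at 1.09 (0.919 to 1.3).

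The enzymes of the complex and the others overlapped in their ratios. The median ratio was 1.36 over the 8 complex enzymes and 1.75 over the other 12. Synthetases fall into structural classes I and II by the fold of their catalytic domain. The 10 class II enzymes of the cytosol were all called higher, with a median ratio of 1.80. Of the 9 class I enzymes 6 were called higher, with a median of 1.38. The scaffold genes were all called higher: Eef1e1 was at 50.5 CPM in Hlf-high and 118 CPM in Car1-high cells, Aimp2 at 32.3 and 70.1 CPM, and Aimp1 at 140.1 and 214 CPM. Of all genes tested, 23.5% were called higher and 53.0% lower. Among cells with 10000 to 20000 UMIs, 8 of the 20 cytosolic genes were called higher and 1 lower. The class II gene Aars had a log2 ratio of -0.046 there, so not all class II enzymes were higher at that depth.

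The summed level of the mitochondrial enzymes did not differ in this way. It was 435 CPM in Hlf-high and 438 CPM (422 to 455) in Car1-high cells, a ratio of 1.01 (0.953 to 1.06). Of 14 tested, 4 were called higher and 3 lower, where 23.5% of all genes tested were called higher and 53.0% lower. Sars2 was at 2.94 CPM in Hlf-high and 11.3 CPM in Car1-high cells, a ratio of 3.85 (2.27 to 6.87), Mars2 at 2.06 (1.38 to 3.13), Yars2 at 2.04 (1.65 to 2.53) and Ears2 at 1.34 (0.922 to 1.96). For Sars2 these were 18 and 71 UMIs, and it passed the level filter only through the Car1-high cells. Wars2 at 0.658 (0.503 to 0.857), Lars2 at 0.683 (0.591 to 0.789) and Nars2 at 0.723 (0.590 to 0.885) were the lower ones. In contrast to the enzymes, 68 of 78 mitochondrial ribosomal protein genes were called higher and 0 lower, and their sum was 5444 CPM in Hlf-high and 9675 CPM in Car1-high cells.

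These ratios are shares of all RNA, and the median log2 ratio of all genes tested was -0.39. Against it, the median was 0.64 over the cytosolic and 0.096 over the mitochondrial enzymes. TMM factors moved the median of all genes to 0.21 and the share of all calls that were higher from 30.8% to 59.9%. They called 20 of 20 cytosolic genes and 11 of 14 mitochondrial genes higher and 0 lower, where 45.6% of all genes were called higher and 30.5% lower. Lars2 and Nars2 turned to log2 ratios of 0.035 and 0.12. Car1-high cells also had more UMIs per cell, with a median of 26590 against 11570.5. Among cells with 10000 to 20000 UMIs, 54 Car1-high and 217 Hlf-high, the ratio of the cytosolic sums was 1.19 (1.10 to 1.28), with 8 genes called higher and 1 lower, and that of the mitochondrial sums was 0.861 (0.758 to 0.976), with 1 higher and 7 lower. At this depth 23.4% of all genes were called higher and 48.8% lower. In those cells Farsa at 2.15 (1.66 to 2.77), Mars1 at 2.06 (1.18 to 3.52), Wars at 1.89 (1.24 to 2.83), Gars at 1.72 (1.23 to 2.38), Hars at 1.5 (1.01 to 2.19) and Dars at 1.47 (1.14 to 1.88) had intervals above 1. Sars2 was at 4.91 (1.49 to 17.2). Aars at 0.920 (0.339 to 2.16), Eprs at 0.851 (0.693 to 1.04), Yars at 0.809 (0.472 to 1.32) and Mars2 at 0.920 (0.270 to 2.53), all called higher without this limit, lay below 1 there.

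Pf4-high cells showed a difference of the same kind, smaller than in Car1-high cells over all depths. Among cells with 10000 to 20000 UMIs the ratios of the cytosolic sums were close, at 1.18 for Pf4-high and 1.19 for Car1-high. Over all depths the summed cytosolic level in Pf4-high cells was 1242 CPM (1207 to 1278), a ratio over LT-HSC Hlf-high cells of 1.23 (1.18 to 1.28). The mitochondrial level was 452 CPM (431 to 474), a ratio of 1.04 (0.977 to 1.10). Of 19 cytosolic genes tested, 12 were called higher and 0 lower, where 22.2% of 10416 genes were called higher and 41.4% lower. Mars1 was again first at 2.08 (1.53 to 2.83), followed by Aars at 1.77 (1.24 to 2.52), Gars at 1.56 (1.31 to 1.86) and Farsa at 1.52 (1.31 to 1.77). Cars, at 3.90 CPM against 5.06, did not pass the level filter. Of 14 mitochondrial genes, Sars2 at 3.45 (1.93 to 6.4), Yars2 at 1.63 (1.27 to 2.08) and Mars2 at 1.42 (0.860 to 2.33) were called higher, and 0 were called lower. Lars2, at 0.854 (0.729 to 0.998), was below 1 but not called. Pf4-high cells had a median of 20877 UMIs, and among cells with 10000 to 20000 UMIs the ratio of the cytosolic sums was 1.18 (1.10 to 1.26), with 8 higher and 1 lower. That of the mitochondrial sums was 0.958 (0.856 to 1.07), with 3 of 14 higher and 4 lower, where 24.6% of all genes were called higher and 43.8% lower. TMM factors moved the median of all genes from -0.18 to 0.20, and the mitochondrial calls to 10 higher and 0 lower. With them 42.1% of all genes were called higher and 23.3% lower. At the matched depth Mars2 and Wars turned below 1, with log2 ratios of -0.10 and -0.11.

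Dntt-positive cells of ST-HSC differed little from the Hlf-high cells of that library in these genes. The summed cytosolic level was 1039 CPM (1018 to 1061) in Dntt-positive and 1038 CPM in Hlf-high cells, a ratio of 1.0 (0.977 to 1.03). Of 20 cytosolic genes, 0 were called higher and 0 lower, where 7.82% of 10517 genes tested were called higher and 17.5% lower. Kars, at 1.17 (1.03 to 1.32), and Vars, at 0.905 (0.827 to 0.990), were the ones with an interval off 1. The mitochondrial sum was 516 CPM (501 to 531) against 548 CPM, a ratio of 0.942 (0.910 to 0.975), and Sars2, at 1.54 (1.18 to 2.0), was the mitochondrial gene called. Below 1 but not called were Nars2 at 0.837 (0.738 to 0.947), Wars2 at 0.861 (0.756 to 0.977), Iars2 at 0.889 (0.790 to 0.998) and Fars2 at 0.926 (0.869 to 0.987). Among cells with 10000 to 20000 UMIs, 0 of 20 cytosolic genes were called higher and 2 lower, and 2 of 14 mitochondrial genes higher and 1 lower, where 8.84% and 21.5% of all genes were. The direction of the mitochondrial sum turned with another scaling, to a log2 ratio of 0.045 with TMM factors.

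**Figure D3:**
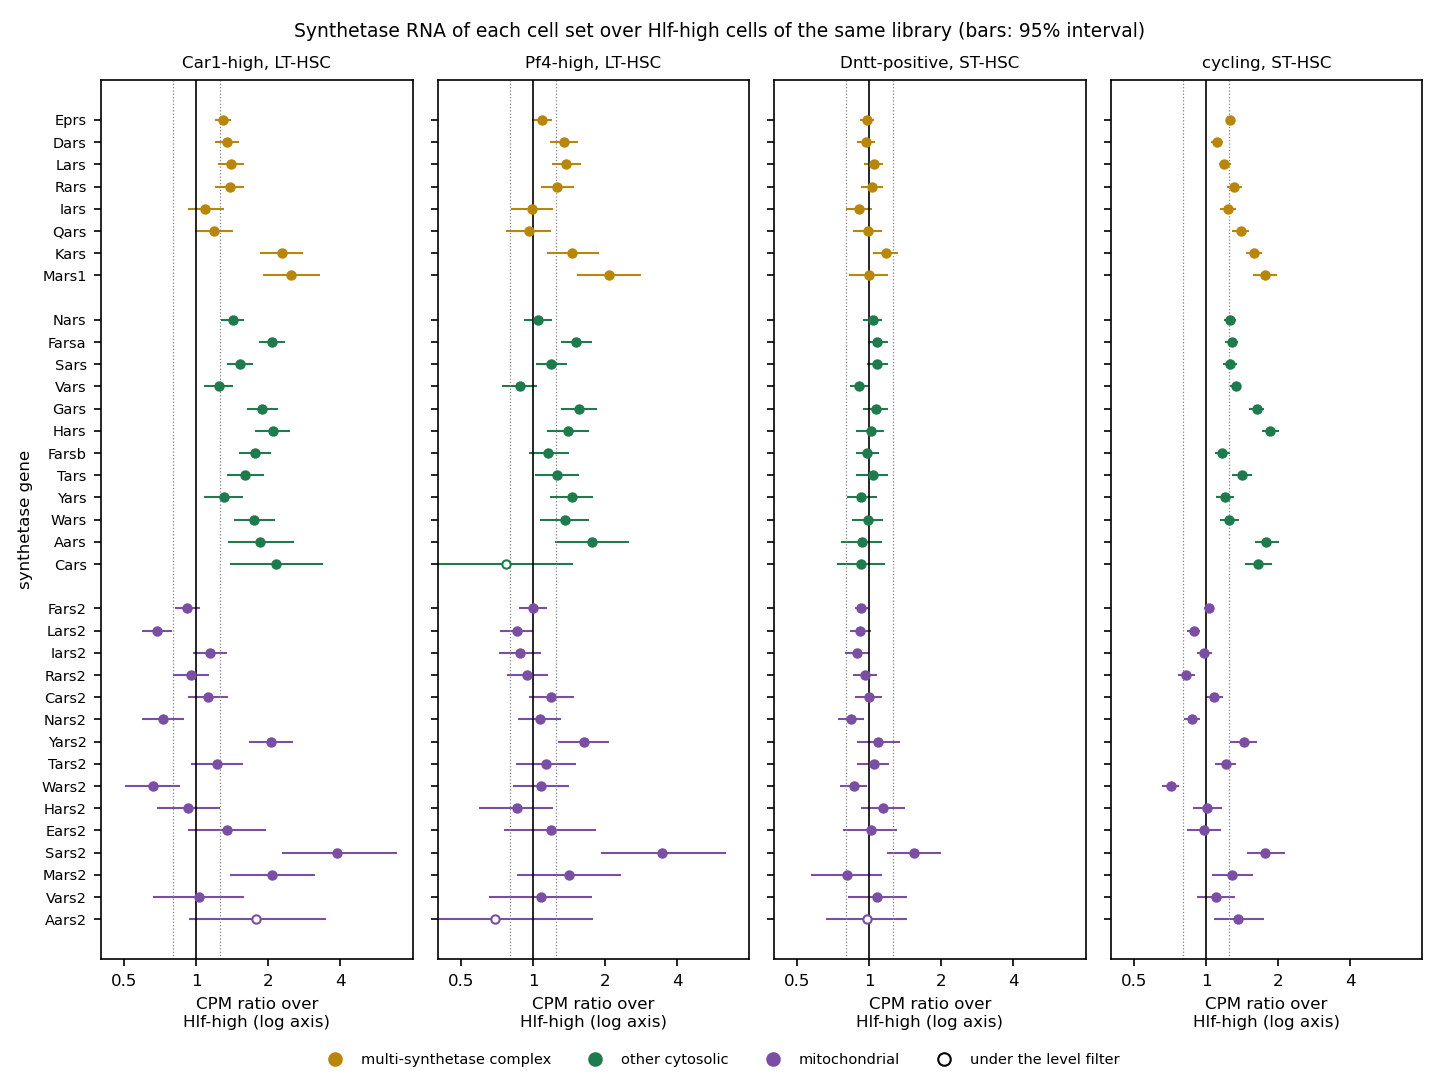
CPM ratio (log axis) of each synthetase gene in Car1-high and Pf4-high cells of LT-HSC and in Dntt-positive and cycling cells of ST-HSC, each over Hlf-high cells of the same library, with 95% intervals as bars, dotted lines at the limits for a call and open symbols for genes under the level filter. The cytosolic enzymes lie mostly right of 1 in the Car1-high panel and around 1 in the Dntt-positive panel, and Sars2 reaches 3.85 in Car1-high cells.

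Cycling cells held a larger share of cytosolic synthetase RNA than Hlf-high cells in both libraries. In ST-HSC the cytosolic sum was 1377 CPM (1367 to 1387) in cycling cells, a ratio of 1.33 (1.31 to 1.35), and 14 of 20 genes were called higher and 0 lower, where 21.6% of 10556 genes tested were called higher and 34.9% lower. Hars led at 1.86 (1.71 to 2.01), from 35.6 to 66.2 CPM, followed by Aars at 1.79 (1.60 to 2.01), Mars1 at 1.77 (1.58 to 1.99) and Cars at 1.65 (1.45 to 1.89). All 20 intervals lay above 1. The mitochondrial sum was 542 CPM (536 to 548), a ratio of 0.989 (0.968 to 1.01). Sars2 at 1.77 (1.48 to 2.13), Yars2 at 1.44 (1.26 to 1.64), Aars2 at 1.36 (1.08 to 1.74) and Mars2 at 1.29 (1.06 to 1.57) were higher. Wars2 at 0.711 (0.655 to 0.773) was lower. Aars2 was under 5 CPM in Hlf-high cells and passed the level filter only through the cycling cells.

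In LT-HSC the cytosolic sum was 1478 CPM (1465 to 1492) in cycling cells, a ratio of 1.46 (1.43 to 1.5) over Hlf-high cells. Of 20 cytosolic genes 19 were called higher, all but Qars at 1.19 (1.03 to 1.37), and 0 lower, where 24.1% of 10418 genes tested were called higher and 49.1% lower. Mars1 at 2.62 (2.08 to 3.34), Cars at 2.31 (1.60 to 3.46), Aars at 2.22 (1.72 to 2.92) and Kars at 2.17 (1.82 to 2.60) had the largest ratios. Of 14 mitochondrial genes 6 were called higher and 2 lower. Sars2 at 3.69 (2.30 to 6.31), Yars2 at 1.77 (1.47 to 2.13) and Mars2 at 1.72 (1.22 to 2.48) led the higher ones, and Wars2 at 0.774 (0.643 to 0.936) and Lars2 at 0.776 (0.700 to 0.862) were lower. Of the 779 cycling cells of LT-HSC, 337 were also Car1-high and 105 Pf4-high, against 13 Hlf-high, so this comparison mixes cycling with those markers.

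Cycling cells also carried more UMIs, with a median of 21305 in ST-HSC and 33355 in LT-HSC. Among cells with 10000 to 20000 UMIs the ratio of the cytosolic sums over Hlf-high cells was 1.06 (1.03 to 1.09) in ST-HSC, with 5 genes higher and 0 lower, and 1.15 (1.08 to 1.22) in LT-HSC, with 9 higher and 0 lower. At this depth 17.0% of all genes were called higher and 28.0% lower in the former, and 24.4% and 44.8% in the latter. The ratios of the mitochondrial sums were below 1 in both libraries. The value was 0.897 (0.863 to 0.932) in ST-HSC, with 1 of 15 genes higher and 3 lower, and 0.808 (0.732 to 0.891) in LT-HSC, with 3 of 14 higher and 8 lower. The cytosolic genes called higher in ST-HSC at that depth were Hars at 1.41 (1.23 to 1.63), Aars at 1.37 (1.13 to 1.67), Cars at 1.29 (1.01 to 1.65), Mars1 at 1.26 (1.02 to 1.55) and Kars at 1.26 (1.10 to 1.45). Nars2 at 0.609 (0.528 to 0.703), Wars2 at 0.695 (0.599 to 0.807) and Rars2 at 0.704 (0.615 to 0.805) were the mitochondrial genes called lower there. A stricter limit of 2% of thinned UMIs for a cycling cell left 262 cycling cells in ST-HSC and 4 cytosolic genes called higher, with Mars1 and Farsa turned to log2 ratios of -0.31 and -0.11.

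Cycling cells were then compared with cells of the same marker that were not cycling, a comparison chosen after seeing the data. In Hlf-high cells of ST-HSC, 400 of which were cycling, the cytosolic sum was 1134 CPM in cycling and 1038 CPM in other cells, a ratio of 1.09 (1.07 to 1.12). There 5 of 20 cytosolic genes were called higher and 0 lower, where 14.1% of 10557 genes tested were called higher and 19.4% lower. These were Cars at 1.53 (1.26 to 1.85), Aars at 1.49 (1.26 to 1.76), Vars at 1.34 (1.24 to 1.45), Qars at 1.3 (1.15 to 1.47) and Kars at 1.28 (1.14 to 1.44). In Dntt-positive cells 6 of 20 were higher and 0 lower, against 13.6% and 17.1% of all genes, led by Aars at 1.61 (1.31 to 1.98), Mars1 at 1.42 (1.16 to 1.75), Cars at 1.37 (1.07 to 1.76) and Vars at 1.37 (1.24 to 1.51). In Car1-high cells of LT-HSC 2 of 20 were higher and 0 lower, against 8.66% and 15.2% of all genes: Aars at 1.32 (1.07 to 1.63) and Iars at 1.26 (1.10 to 1.44). Hars at 1.21 (1.08 to 1.35) and Wars at 0.860 (0.748 to 0.991) had intervals off 1 without a call. In Pf4-high cells 3 of 20 were higher and 0 lower, against 12.8% and 19.4%, with Cars at 2.06 (1.06 to 4.14), Nars at 1.33 (1.15 to 1.53) and Iars at 1.27 (1.03 to 1.58), and Gars at 1.20 (1.01 to 1.42) was not called. Cars rested there on 28 and 15 UMIs and passed the level filter only through the cycling cells. The counts of members in these 4 comparisons lay nearer to the background than those for all cycling cells over Hlf-high cells. Cycling cells also had more UMIs, with medians of 18930 against 9857 in Hlf-high and 20364 against 11702 in Dntt-positive cells. In Car1-high cells the medians were 46487 against 26590, and in Pf4-high cells 28054 against 20877. Car1-high and Pf4-high cells could not be compared at matched depth, with 21 and 10 cycling cells of 10000 to 20000 UMIs. Among cells with 10000 to 20000 UMIs the ratio of the cytosolic sums was 1.02 (0.979 to 1.06) in Hlf-high cells. Of 20 genes, 5 were called higher and 2 lower. In Dntt-positive cells the ratio was 1.03 (0.985 to 1.08), with 4 higher and 0 lower. Both intervals held 1, so no difference of these sums was resolved at that depth.

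Mitochondrial enzymes showed no common direction between cycling and other cells of the same marker over all depths. Called higher and lower were 2 and 1 of 15 genes in Hlf-high, 2 and 0 of 15 in Dntt-positive, 3 and 0 of 15 in Car1-high and 1 and 2 of 14 in Pf4-high cells. In the same order 14.1% and 19.4%, 13.6% and 17.1%, 8.66% and 15.2%, and 12.8% and 19.4% of all genes were. Aars2 was among the genes called higher in Hlf-high, Dntt-positive and Car1-high cells. In each of these it passed the level filter only through the cycling cells. Among cells with 10000 to 20000 UMIs the ratio of the mitochondrial sums was 0.941 (0.890 to 0.995) in Hlf-high, with 1 of 14 higher and 4 lower. In Dntt-positive cells it was 0.901 (0.844 to 0.961), with 2 of 15 higher and 5 lower. At that depth 17.1% and 24.7%, and 16.5% and 19.9%, of all genes were. Sars2 was at 1.65 (1.28 to 2.13) in Hlf-high cells and 0.997 (0.751 to 1.33) in Dntt-positive cells. In Hlf-high cells Rars2 was called lower at 0.795 (0.699 to 0.901), and Wars2 was at 0.825 (0.724 to 0.938). In Dntt-positive cells Mars2 was higher at 1.61 (1.11 to 2.36), while Nars2 at 0.801 (0.685 to 0.936) and Rars2 at 0.840 (0.726 to 0.970) were below 1 without a call. In Car1-high cells Nars2 at 1.29 (1.09 to 1.54) and Iars2 at 1.26 (1.11 to 1.44) were higher. Within the cycling cells, those with more G2/M than S phase UMIs were also compared with the rest, again after seeing the data. Here 5 of 20 cytosolic genes were called higher and 0 lower in ST-HSC, against 14.7% and 18.2% of all genes, and 5 and 0 of 20 in LT-HSC, against 12.0% and 27.5%. The cytosolic sum was 1259 CPM in the S-leaning and 1405 CPM in the G2/M-leaning cells of ST-HSC. Qars was the largest in both, at 1.48 (1.32 to 1.67) in ST-HSC and 1.57 (1.33 to 1.88) in LT-HSC, and Cars and Nars were called higher in both. In ST-HSC Tars at 1.43 (1.26 to 1.63), Cars at 1.33 (1.13 to 1.57) and Hars at 1.27 (1.16 to 1.39) came next. Among its mitochondrial genes Cars2 was lower at 0.799 (0.722 to 0.884), with Sars2 at 1.24 (1.01 to 1.53) and Fars2 at 1.13 (1.07 to 1.19). For LT-HSC the next were Cars at 1.44 (1.04 to 2.03), Iars at 1.40 (1.21 to 1.63) and Nars at 1.37 (1.24 to 1.51). The mitochondrial Ears2 at 1.52 (1.09 to 2.18) and Hars2 at 1.43 (1.07 to 1.93) were higher there, and Cars2 was at 0.834 (0.720 to 0.970). Another random thinning gave 3 cytosolic genes in either library. At 10000 to 20000 UMIs per cell the ST-HSC counts were 2 higher and 4 lower, where 20% of all genes were called higher and 19.1% lower. The ratio of the cytosolic sums was 0.937 (0.906 to 0.968) there, and Qars was at 1.48 (1.23 to 1.79).

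Cycling Car1-high cells were present in both libraries, with 337 cells for LT-HSC against 96 for ST-HSC. They had the highest cytosolic synthetase sums of the sets compared, 1634 CPM (1615 to 1654) and 1976 CPM (1931 to 2020.4). This comparison was added after seeing the data. Of 20 cytosolic genes 9 were called higher in ST-HSC and 0 lower, where 33.6% of 8863 genes tested were called higher and 19.2% lower. Cars led at 2.40 (1.90 to 3.03), followed by Aars at 1.82 (1.51 to 2.17), Kars at 1.71 (1.5 to 1.93) and Wars at 1.64 (1.41 to 1.90). Of 15 mitochondrial genes 7 were called higher and 1 lower, with Vars2 at 1.79 (1.28 to 2.48), Fars2 at 1.67 (1.51 to 1.84) and Nars2 at 1.64 (1.40 to 1.91) the largest and Yars2 at 0.758 (0.623 to 0.916) the lower one. Median UMIs were 46487 and 39606. TMM factors moved the median log2 ratio of all genes from 0.11 to -0.085 and the cytosolic calls to 7 higher and 3 lower. With them 21.9% of all genes were called higher and 31.8% lower.

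The share of cytosolic synthetase RNA went with UMIs per cell inside the sets as well. When the 432 Hlf-high cells of LT-HSC were split into 3 equal parts by UMIs, the cytosolic sum was 956 CPM (899 to 1015), 978 CPM (931 to 1026) and 1043 CPM (1009 to 1079) from the shallowest to the deepest cells. In Car1-high cells it was 1221 CPM (1153 to 1291), 1502 CPM (1447 to 1559) and 1614 CPM (1572 to 1657). In cycling cells of ST-HSC it was 1120.1, 1189 and 1571 CPM. Pf4-high cells were the set without this order, at 1193, 1166 and 1298 CPM. The mitochondrial sum was also higher in the deepest than in the shallowest cells of each set, for example 376 and 467 CPM in Hlf-high cells of LT-HSC. Cells that hold more RNA and libraries that capture more of it cannot be told apart from UMI counts.

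**Figure D4:**
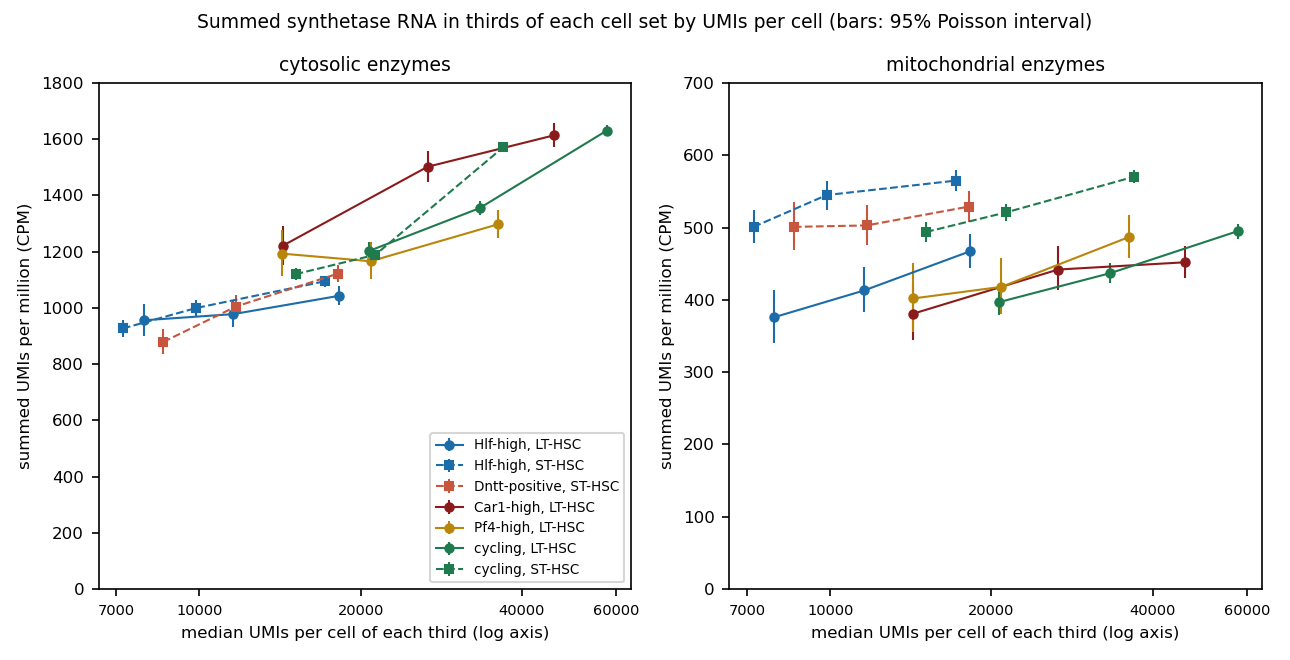
Summed CPM of the 20 cytosolic (left) and the 15 mitochondrial (right) synthetase genes in 3 equal parts of each cell set, placed at the median UMIs per cell of the part on a log axis, with 95% Poisson intervals as bars, circles and solid lines for LT-HSC and squares and dashed lines for ST-HSC. The cytosolic sum of Car1-high cells goes from 1221 to 1614 CPM, and in the mitochondrial panel the parts of ST-HSC Hlf-high cells, at 501, 545 and 565 CPM, lie above those of LT-HSC Hlf-high cells, at 376, 413 and 467 CPM.

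Most amino acids have a cytosolic and a mitochondrial enzyme, and the balance within a pair was compared by UMI counts, of which both come from the same cells. In all kept LT-HSC cells the cytosolic gene was ahead for Eprs over Ears2, at 19.9 (18.4 to 21.5), and Vars over Vars2, at 11.3 (10.2 to 12.5). Cars was behind Cars2, at 0.250 (0.228 to 0.273) in LT-HSC and 0.444 (0.421 to 0.469) in ST-HSC. Wars over Wars2 was 1.13 (0.899 to 1.43) in Hlf-high and 3.0 (2.38 to 3.82) in Car1-high cells of LT-HSC, and Nars over Nars2 was 2.37 (2.03 to 2.77) and 4.64 (3.93 to 5.50). The tyrosine and serine pairs went the other way: Yars over Yars2 was 1.47 (1.17 to 1.85) in Hlf-high and 0.935 (0.786 to 1.11) in Car1-high cells, and Sars over Sars2 was 22.1 (13.8 to 37.7) and 8.75 (6.83 to 11.3).

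Mouse Lars2 is known to collect reads of ribosomal RNA-like repeats, so it was read beside Gm42418, AY036118 and Gm26917, which do the same. Lars2 was at 75.5 CPM in LT-HSC Hlf-high, 64.4 CPM in Pf4-high and 51.5 CPM in Car1-high cells, and those genes together were at 6226, 4441 and 2806 CPM in the same order. Between the Hlf-high cells of LT-HSC and ST-HSC, Lars2 was at 75.5 and 68.6 CPM while the other 3 genes were at 6226 and 2226 CPM. Whether such reads contribute to Lars2 was not tested. Without Lars2 the ratio of the mitochondrial sums was 1.07 (1.01 to 1.14) for Car1-high over Hlf-high cells.

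Several synthetase genes are known targets of ATF4, a transcription factor of the integrated stress response that binds the C/EBP-ATF response element. Of 22 genes of that response, 19 were tested in Car1-high over Hlf-high cells, with 6 called higher and 10 lower, where 23.5% and 53.0% of all genes tested were. The list summed to 1146 CPM in Car1-high and 1494 CPM in Hlf-high cells. The 3 largest differences in the list, whatever their direction, were all of lower genes. Trib3, a target and inhibitor in this response, was at 16.7 CPM in Hlf-high and 0.638 CPM in Car1-high cells, and Cebpb, a partner of ATF4, was at 162 and 31.0 CPM, followed by Ddit4, an inhibitor of mTORC1 signalling, at 30.1 and 9.10 CPM. In Hlf-high cells of ST-HSC the list was at 1128 CPM, with Ppp1r15a, the stress-induced phosphatase subunit, at 97.4 CPM against 410.4 CPM in LT-HSC. Myc, whose protein drives growth genes, was at 66.8 CPM in LT-HSC Hlf-high and 189.6 CPM in Car1-high cells, and its relative Mycn was at 105 and 5.59 CPM. Ratios of the synthetases and of these lists come from the same cells, and their relation was not tested.

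Other steps of translation were read in the same comparison of Car1-high with Hlf-high cells, against the same 23.5% of all genes called higher and 53.0% lower. Of 18 tested genes for modification and processing of transfer RNA, 11 were called higher and 1 lower, with Trmt61a, a methyltransferase subunit, at 2.27 (1.72 to 3.02) and the pseudouridine synthase Pus1 at 1.90 (1.60 to 2.26). Of 9 cytosolic elongation factor genes 5 were called higher and 0 lower, led by Eif5a at 2.52 (2.44 to 2.60). Of 9 mitochondrial translation factors 3 were higher and 3 lower, with Tsfm, an elongation factor, at 2.83 (2.40 to 3.34). Aarsd1, which edits wrongly charged alanine transfer RNA, was at 3.25 (2.83 to 3.75). Of 10 genes for eIF2 kinases and eIF2B, 6 were higher and 3 lower, and the kinase genes Eif2ak3 at 0.389 (0.255 to 0.581) and Eif2ak4 at 0.423 (0.344 to 0.516) were among the lower ones.

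Promoter sequences are shown because many cytosolic members were higher in the same sets. RefSeq promoters of build GRCm38.p6 (mm10), from 250 bases before to 50 after the start of each gene, matched 27 of the 35 genes, 13 cytosolic and 14 mitochondrial. Those of Lars, Rars, Cars, Hars, Nars, Vars, Wars and Hars2 were not used here. The response element was searched as TGATGNAA on both strands and occurs in 3.97% of 32851 promoters of this length. It was found in 5 of the 13 cytosolic promoters, those of Aars, Gars, Iars, Tars and Yars, and in 0 of the 14 mitochondrial ones. The matches upstream of a RefSeq start site are shown on the gene's strand, with the matched bases in capitals, for Aars at chr8:111033700-111033767 on the plus strand, Gars at chr6:55037941-55038000 on the plus strand and Tars at chr15:11399659-11399703 on the minus strand.
Aars: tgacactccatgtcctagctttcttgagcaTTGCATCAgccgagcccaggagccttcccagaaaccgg
Gars: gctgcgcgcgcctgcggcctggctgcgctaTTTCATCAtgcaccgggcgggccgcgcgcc
Tars: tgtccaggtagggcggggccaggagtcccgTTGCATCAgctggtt

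The members with and without this element overlapped in their ratios. In Car1-high over Hlf-high cells the 5 with a match had ratios from 1.09 to 1.88 with a median of 1.60, and the 8 without from 1.18 to 2.48 with a median of 1.64. Mars1 and Kars, which had the largest ratios there, were among those without a match. In cycling over Hlf-high cells of ST-HSC the medians were 1.41 and 1.27, with ranges of 1.20 to 1.79 and 1.11 to 1.77. A match describes letters in a window and is not evidence of binding.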

How the data were processed

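The files hold raw UMI counts per gene and barcode for 1 LT-HSC and 1 ST-HSC library, deposited by the authors as filtered matrices. Per the submitters' processing notes they were made with Cell Ranger 7.2 and build mm10, while per the file headers the version was 7.1.0. Whether reads in introns were counted, and with which strand setting, is not given in the sources used here. A count of molecules is not normalized, so depth differs between cells.

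Barcodes with at least 1000 genes and under 10% mitochondrially encoded UMIs were kept, and their counts were summed over each library or cell set and divided by the total of the sum (CPM). Cells were thinned to 5000 UMIs for set membership only, and 68 LT-HSC and 281 ST-HSC cells below that depth joined no set. Hlf-high needed 3 thinned UMIs, Dntt-positive 1, Car1-high 20 and Pf4-high 5. Cells meeting more than 1 of these rules, 8 in LT-HSC and 412 in ST-HSC, joined none, and a set needed 50 cells. CPM have exact Poisson intervals and ratios exact conditional binomial intervals, all at 95% and for counting error only, since each group is 1 library. UMIs mark molecules, so PCR copies are not counted again. Log2 ratios carry a prior count of 0.5. Doublets were kept: Scrublet's own limit marked 7 LT-HSC cells (0.257%) and 0 ST-HSC cells, so it was taken as not having worked, and an alternative left out the 40 and 402 cells with the highest scores.

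All 35 genes are given with both library levels. In each comparison the 4 cytosolic and 3 mitochondrial genes with the largest absolute log2 ratios and an interval that leaves out 1 were named, with members that went against their group. The members, lists, sets and rules were chosen with earlier results of these data known. On simulated counts for Car1-high over Hlf-high cells (10295 genes), 100.0% of genes simulated at a ratio of 2.0 and 91.7% of those at 0.667 were called, as were 8.16% of unchanged genes. For the 2 whole libraries (10413 genes) 0.00979% of unchanged genes were called. Alternatives covered scaling, level and cell filters, doublets, set limits, fold limits and depth. Tools were python 3.11.15, numpy 2.4.6, scipy 1.17.1, pandas 2.3.3, scanpy 1.11.5, matplotlib 3.10.9 and, for TMM factors only, edgeR 4.0.16.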

Additional observations from a re-analysis of the deposited data

Results flagged for a closer look

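Nars2, the mitochondrial asparagine enzyme, went in opposite directions between cycling and other cells of the same marker. Its ratio was 1.29 (1.09 to 1.54) in Car1-high cells of LT-HSC, and 0.855 (0.756 to 0.966) in Hlf-high and 0.801 (0.685 to 0.936) in Dntt-positive cells of ST-HSC. Eprs was lower in ST-HSC than in LT-HSC among Hlf-high cells, at 0.817 (0.762 to 0.876), and higher among cycling Car1-high cells, at 1.09 (1.02 to 1.17). Sars, the cytosolic serine enzyme, did the same, at 0.857 (0.764 to 0.963) and 1.17 (1.05 to 1.3). Each pair of intervals lies on both sides of 1. These differences between sets were not tested, since each library is a single sample, and the sets also differ in median UMIs per cell.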

How the results depend on the processing

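With 1 library per group no alternative replaces a replicate. Over all alternatives, 276 counts of called members stayed within 1.5 times the reported count and 88 did not, and 1862 ratios of named members stayed within their interval, 258 left it and 28 changed sign. Of the summed levels 436 stayed, 99 moved and 11 changed sign. Why a value moved was not tested. No paired analysis was possible because each group holds 1 library and no test was run. Cycling against other cells of a marker, G2/M-leaning against S-leaning cells, cycling Car1-high cells and the depth range were chosen after seeing the data. Counts below are of called members in both directions, with the reported count in parentheses. A pooled count can hide a change of direction. With the 2% limit, the cytosolic calls between cycling and other Hlf-high cells were 4 higher and 4 lower, against 5 reported, all higher. With at least 20 CPM the mitochondrial calls for Car1-high were 1 higher and 2 lower, against 27.7% and 45.8% of all genes. Such shares are not given beside the other counts, which are not read as results about the members.

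Cells with 10000 to 20000 UMIs gave these cytosolic counts: Car1-high 9 (17), cycling LT-HSC 9 (19), cycling ST-HSC 5 (14) and Dntt-positive 2 (0), each over Hlf-high cells. The mitochondrial counts were 3 (1) for Dntt-positive, 7 (3) for Pf4-high, 2 (1) for G2/M-leaning ST-HSC cells, and for cycling against other cells 7 (2) in Dntt-positive and 5 (3) in Hlf-high. Log2 ratios of sums that changed sign were -0.094 for the cytosolic genes of G2/M-leaning ST-HSC cells and -0.31 for the mitochondrial genes of cycling LT-HSC cells. Without Lars2 the mitochondrial sums were at -0.17 (Car1-high), -0.22 (cycling LT-HSC) and -0.013 (G2/M-leaning ST-HSC). Single log2 ratios that changed sign were, in Car1-high, Aars -0.046, Eprs -0.23, Mars2 -0.019 and Yars -0.28, and in Pf4-high Mars2 -0.10 and Wars -0.11. In cycling LT-HSC cells they were Ears2 -0.60, Eprs -0.21, Iars -0.22, Iars2 -0.12, Lars -0.0059, Tars2 -0.31, Yars -0.17 and Wars2 0.065. In cycling ST-HSC cells they were Eprs -0.023, Nars -0.059 and Tars -0.096, with Hars at -0.062 in G2/M-leaning ST-HSC cells and Cars at -0.011 in cycling against other Dntt-positive cells.

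TMM factors gave mitochondrial counts of 11 (7) for Car1-high, 10 (3) for Pf4-high, 2 (1) for Dntt-positive, 6 (2) for G2/M-leaning LT-HSC, 2 (1) for G2/M-leaning ST-HSC and 1 (3) for cycling against other Hlf-high cells. The cytosolic counts were 9 (5) for G2/M-leaning cells of either library and 1 (0) for Dntt-positive. Log2 ratios that changed sign were 0.035 for Lars2 and 0.12 for Nars2 in Car1-high, 0.13 for Lars2 and 0.12 for Wars2 in cycling LT-HSC cells, and 0.045 for the mitochondrial sum of Dntt-positive cells (0.052 without Lars2). Median-of-ratios factors gave mitochondrial counts of 6 (3) for Pf4-high, 2 (1) for Dntt-positive, 6 (2) for G2/M-leaning LT-HSC and 1 (3) for cycling Hlf-high cells, and cytosolic counts of 8 (5) for G2/M-leaning LT-HSC and 1 (0) for Dntt-positive. The Dntt-positive mitochondrial sum turned to 0.057 (0.064 without Lars2) and the cytosolic sum of ST-HSC over LT-HSC Hlf-high cells to -0.017.

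The median log2 ratio of all genes and the share of all calls that were higher moved with TMM as follows. Cycling over Hlf-high went from -0.31 to 0.21 and from 32.9% to 61.3% in LT-HSC, and from -0.12 to 0.15 and from 38.3% to 67.2% in ST-HSC. Pf4-high went from -0.18 to 0.20 and from 34.9% to 64.4%, Dntt-positive from -0.069 to 0.065 and from 30.9% to 60.2%, and G2/M-leaning LT-HSC from -0.067 to 0.071 and from 30.4% to 53.1%. The share went from 44.6% to 62.6% for G2/M-leaning ST-HSC, from 63.7% to 40.8% for cycling Car1-high cells, and for cycling against other cells from 42.0% to 53.3% in Hlf-high, 44.3% to 57.7% in Dntt-positive and 36.4% to 47.5% in Car1-high cells.

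Fold limits of 1.5 and its inverse gave cytosolic counts of 11 (17) for Car1-high, 4 (12) for Pf4-high, 8 (19) and 6 (14) for cycling LT-HSC and ST-HSC, 1 (7) for the whole libraries, 3 (5) for Hlf-high cells of both libraries, and 1 (5) and 0 (5) for G2/M-leaning LT-HSC and ST-HSC. For cycling against other cells they were 0 (2) in Car1-high, 1 (6) in Dntt-positive, 1 (5) in Hlf-high and 1 (3) in Pf4-high. The mitochondrial counts in the same order of sets were 4 (7) for Car1-high, 3 (8) and 1 (5) for cycling cells, 3 (5) for the whole libraries, 5 (8) for cycling Car1-high cells, 1 (2) and 0 (1) for G2/M-leaning cells, and 0 (3), 1 (2), 1 (3) and 0 (3) for cycling against other cells.

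A mean of at least 20 CPM gave mitochondrial counts of 3 (7) for Car1-high, 1 (3) for Pf4-high, 0 (1) for Dntt-positive, 5 (8) and 1 (5) for cycling LT-HSC and ST-HSC, 3 (5) for Hlf-high and 5 (8) for cycling Car1-high cells of both libraries, and 0 (2) for G2/M-leaning LT-HSC. For cycling against other cells they were 0 (2) in Dntt-positive, 1 (3) in Hlf-high and 1 (3) in Pf4-high, and the cytosolic count for Hlf-high cells of both libraries was 2 (5). Cycling at 2% gave 4 (14) cytosolic and 3 (5) mitochondrial for cycling ST-HSC, 2 (1) mitochondrial for Dntt-positive, and for cycling against other cells 8 (5) cytosolic in Hlf-high and 6 (2) mitochondrial in Dntt-positive. The cytosolic sum of the latter turned to -0.088, Cars and Mars1 there to -0.31 and -0.72, and Farsa and Mars1 in cycling ST-HSC cells to -0.11 and -0.31.

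Lower marker limits gave 1 (0) cytosolic for Dntt-positive, and for cycling against other cells 1 (2) and 5 (3) cytosolic in Car1-high and Pf4-high and 1 (3) and 4 (2) mitochondrial in Car1-high and Dntt-positive. Higher limits gave 1 (0) cytosolic for Dntt-positive, and for cycling against other cells 3 (6) and 5 (3) cytosolic in Dntt-positive and Pf4-high and 1 (3) and 6 (3) mitochondrial in Hlf-high and Pf4-high. Leaving out the highest doublet scores gave mitochondrial counts of 2 (1) for Dntt-positive and for G2/M-leaning ST-HSC, 4 (2) and 5 (3) for cycling Dntt-positive and Pf4-high, and 1 (2) cytosolic for cycling Car1-high cells. Stricter cell filters gave 2 (1) mitochondrial for Dntt-positive and for G2/M-leaning ST-HSC. Weighting cells equally gave mitochondrial counts of 2 (1) for Dntt-positive, 6 (3) for Pf4-high and 4 (2) for cycling Dntt-positive cells. Another random thinning gave 3 (5) cytosolic for G2/M-leaning cells of either library, 2 (1) mitochondrial for ST-HSC, and Aars2 at -0.21 between cycling Car1-high cells. Without Car1-high, Pf4-high and cycling cells the whole libraries gave 3 (7) cytosolic calls, all higher. Sets under 50 cells gave no value: at matched depth and at 2% the G2/M-leaning LT-HSC, cycling Car1-high and cycling Pf4-high comparisons, at 2% also cycling LT-HSC and G2/M-leaning ST-HSC cells, and with higher marker limits cycling Car1-high cells between libraries.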
